A study of Mus musculus with 4 samples.

Results

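Formative epiblast genes are a group of 9 mouse genes that mark the step between naive and primed pluripotency: Otx2, Fgf5, Pou3f1, Zic2, Zic5, Foxd3, Utf1, Lin28b and Gbx2. They were chosen by name, matched to their Ensembl identifiers and read in all 4 RNA-seq libraries, and they are 9 of the 37620 genes counted. Most encode transcription factors, whereas Fgf5 encodes a secreted growth factor and Lin28b an RNA-binding protein. Of the 9, 7 reached 1 CPM, a read count scaled to a common library size, in at least 1 library, as did 14263 genes in all.

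The study asked how inputs to signaling pathways move mouse pluripotent cells between states. Its libraries analysed here were 1 per condition, so no difference has a replicate check and no p-value is given. R1 mouse embryonic stem cells (mESCs), an established line, were grown for 2 days without feeders in medium with serum. All 3 mESC cultures held 2i, which is the GSK3 inhibitor CHIR99021 at 3 µM together with the MEK inhibitor PD0325901 at 1 µM. The 2i-L culture had no LIF listed. The 2iJ culture also had a JAK inhibitor at 2 µM, which blocks the receptor kinases through which LIF acts. The 2iJ+B-A culture had, on top of 2iJ, 10 ng/ml of BMP4 and 10 µM of ALK5 inhibitor II, an inhibitor of the Activin and Nodal type I receptors. The fourth library came from trophoblast stem cells (TSCs) of the F4 line, labelled day 2 and with no additive labelled, so cell type, line and medium cannot be told apart in any comparison with it. The study's methods mention experiments of 2 days and a correction for them, but the labels name no experiment day per library and the deposited counts are raw, so experiment day and condition cannot be told apart either. Each library had between 33913984 and 36964392 counts on genes, and 3 counts, the smallest signal taken as detectable, corresponded to between 0.0799 and 0.0902 CPM.

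The labels were checked against markers, and none went against its label. This check set TSCs against mESCs and 2iJ+B-A against 2iJ, so it could not tell 2i-L from 2iJ. Pou5f1, the gene of the pluripotency factor Oct4, stood at 884.7 CPM under 2iJ but 1.34 CPM in TSCs, while the trophoblast stem cell gene Elf5 was at 0.0582 CPM under 2iJ but 298.3 CPM in TSCs. Of 13 trophoblast genes compared, 8 were at least 2-fold higher and 1 was lower in 2iJ+B-A against 2iJ. Over all genes, 5.81% were higher and 3.17% lower. The list of 14 such genes summed to 1785 CPM in 2iJ+B-A, 914.9 CPM in 2iJ, 970.7 CPM in 2i-L and 4142 CPM in TSCs. Most of the difference between 2iJ and 2iJ+B-A in that sum lay in the keratin genes Krt8, at 133.7 and 552.6 CPM, and Krt18, at 104.5 and 521.4 CPM, while Eomes was lower (log2 ratio -1.78). Elf5 stayed at 0.133 CPM in 2iJ+B-A. In a bulk library, fewer cells of a type and less RNA per cell cannot be told apart.

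In the embryo, naive epiblast cells of the blastocyst enter a formative phase after implantation, when they become able to respond to lineage signals, and then a primed phase. OTX2 helps to move enhancer use from the naive to the formative pattern, FGF5 is the classic marker of the post-implantation epiblast, and POU3F1 (Oct6) is a POU-domain factor that comes up at the same step. ZIC2 and ZIC5 are zinc-finger factors whose genes lie head to head, FOXD3 is a forkhead factor needed to keep the epiblast, UTF1 is a chromatin-bound protein of pluripotent cells, LIN28B blocks the maturation of let-7 microRNAs, and GBX2 is a homeobox factor that in mESCs also acts on the naive side, downstream of LIF. MEK inhibition in 2i is known to hold cells away from the formative phase.

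The promoters of 4 members are shown. The cultures change the input to STAT3, TCF, and BMP and Activin SMAD proteins, for which short recognition motifs are known. Against 2iJ, Foxd3 and Zic5 passed 2-fold in 2iJ+B-A, while Utf1 (log2 ratio -0.93) and Otx2 (-0.75) did not. Lin28b (-0.64), also lower there, is not shown. Sequences are from RefSeq (GRCm38.p6), each cut at the first base that NCBIM37, the build of the count files, annotates as exon, with coordinates from their single exact match in NCBIM37. Otx2 (chr14:49287320-49287569, minus strand) and Foxd3 (chr4:99322740-99322989, plus strand) went opposite ways in 2iJ+B-A, Zic5 (chr14:122864900-122865130, minus strand) was past 2-fold lower there, and Utf1 (chr7:147129505-147129687, plus strand) was lower there and more than 2-fold higher in TSCs. Capitals mark CAGAC, the core SMAD motif.
Otx2: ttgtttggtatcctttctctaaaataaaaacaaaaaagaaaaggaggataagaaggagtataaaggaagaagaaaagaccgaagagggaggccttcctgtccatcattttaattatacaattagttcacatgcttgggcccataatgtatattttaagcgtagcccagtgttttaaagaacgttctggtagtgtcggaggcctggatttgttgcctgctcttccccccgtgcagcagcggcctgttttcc
Foxd3: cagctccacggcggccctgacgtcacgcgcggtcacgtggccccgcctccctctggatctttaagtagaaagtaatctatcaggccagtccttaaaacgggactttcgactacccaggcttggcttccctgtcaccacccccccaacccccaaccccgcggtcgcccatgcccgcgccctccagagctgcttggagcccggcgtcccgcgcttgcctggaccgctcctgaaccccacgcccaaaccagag
Zic5: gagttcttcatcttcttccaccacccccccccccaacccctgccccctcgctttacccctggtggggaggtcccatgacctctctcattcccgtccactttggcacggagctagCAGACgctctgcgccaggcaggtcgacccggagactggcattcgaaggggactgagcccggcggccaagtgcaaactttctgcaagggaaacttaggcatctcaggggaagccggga
Utf1: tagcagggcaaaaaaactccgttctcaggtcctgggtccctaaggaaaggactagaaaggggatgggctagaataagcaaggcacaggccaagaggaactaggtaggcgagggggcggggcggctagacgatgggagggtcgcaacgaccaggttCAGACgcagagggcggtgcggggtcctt

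A promoter was found for 7 of the 9 members, 10 start sites in all, since Otx2 has several. Zic2 and Pou3f1 had none. The 250 bases before each start were searched on both strands. CAGAC was in the promoters of Zic5 and Utf1, and 42.2% of all 32851 mouse promoters hold it. GGCGCC, a motif of BMP-responsive SMADs, was in the 250 bases before the RefSeq start of Gbx2 and in 9.59% of all promoters. That stretch of Gbx2 lies within the gene in NCBIM37 and is wholly annotated as exon there. CTTTGA, the TCF and LEF motif, was in none of the members' promoters and is in 13.8% of all. The STAT motif TTCNNNGAA, held by 7.02% of all promoters, was found at 1 internal start site of Otx2 (chr14:49284889-49284897), in exonic sequence, and is shown in capitals with its flanks.
Otx2 internal site: gtagatgggcTTCTTGGAAgaaggggaaa
No match overlapped another. Each is a match of letters and not a site shown to be bound.

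The first comparison asked what JAK inhibition adds to 2i without LIF. None of the 7 members that could be compared differed by 2-fold or more between 2iJ and 2i-L after 0.5 CPM was added to each level, although Gbx2 was 2.11-fold lower in 2iJ without that addition. This stands against 1.23% of all genes that were at least 2-fold higher and 0.918% that were lower. Within that range, Otx2, Foxd3, Zic2 and Utf1 were higher in 2iJ and Gbx2, Zic5 and Lin28b were lower. The median log2 ratio was 0.36 over the 7 members and 0.00 over all genes. Log2 ratios are of CPM after adding 0.5 CPM, and their intervals are 95% Clopper-Pearson intervals, which cover counting error only.

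The second comparison asked what BMP4 and the ALK5 inhibitor do to cells in 2iJ. Here Otx2, Zic2, Zic5, Utf1 and Lin28b were lower in 2iJ+B-A, Foxd3 was higher, and Gbx2 did not differ beyond counting error. By the 2-fold rule, Zic2 and Zic5 were lower, against 3.17% of all genes, and Foxd3 was higher, against 5.81%. The median log2 ratio was -0.75 over the members and 0.00 over all genes. Utf1 at -0.93 lay just outside the rule, and the counting intervals of Foxd3 and Zic2 reached below 2-fold. The third comparison, TSCs against 2iJ, gave the largest differences. Otx2, Foxd3 and Lin28b were lower by 2-fold or more, against 17.6% of all genes, and Utf1 and Gbx2 were higher, against 19.4%. The 2iJ library is shared by all 3 comparisons, so the same counts enter each of them.

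**Figure D1:**
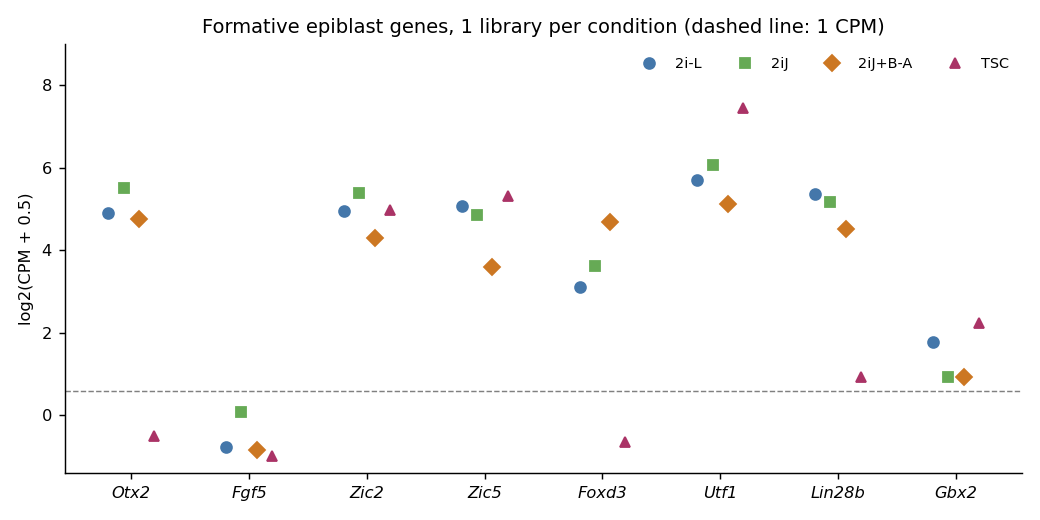
Level of 8 of the genes in the 4 libraries, without Pou3f1, whose level could not be read,, as log2(CPM + 0.5) on the vertical axis, with 1 point per library and no error bars because each condition has 1 library. Otx2, Foxd3 and Lin28b are lower in TSCs than in any mESC library, Zic2 and Zic5 are not, and Fgf5 lies under the dashed line at 1 CPM in all 4.

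**Figure D2:**
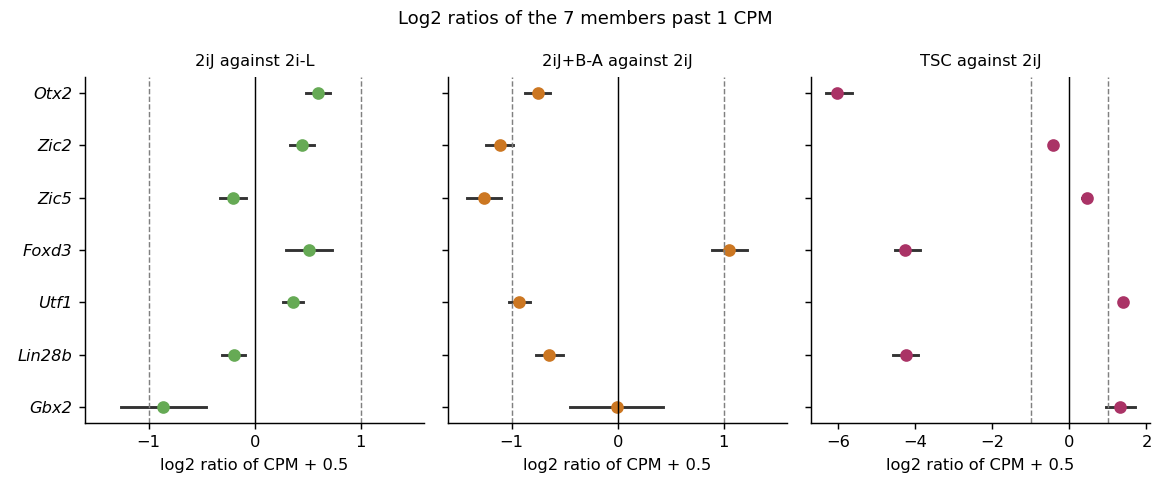
Log2 ratio of CPM + 0.5 (points) with 95% counting intervals (bars) for the 7 members that reached 1 CPM, in the 3 comparisons, with dashed lines at 2-fold. The third panel has a wider axis. In the middle panel Foxd3 lies above 0, at 1.05, Gbx2 lies at -0.01 and the others lie below 0.

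**Figure D3:**
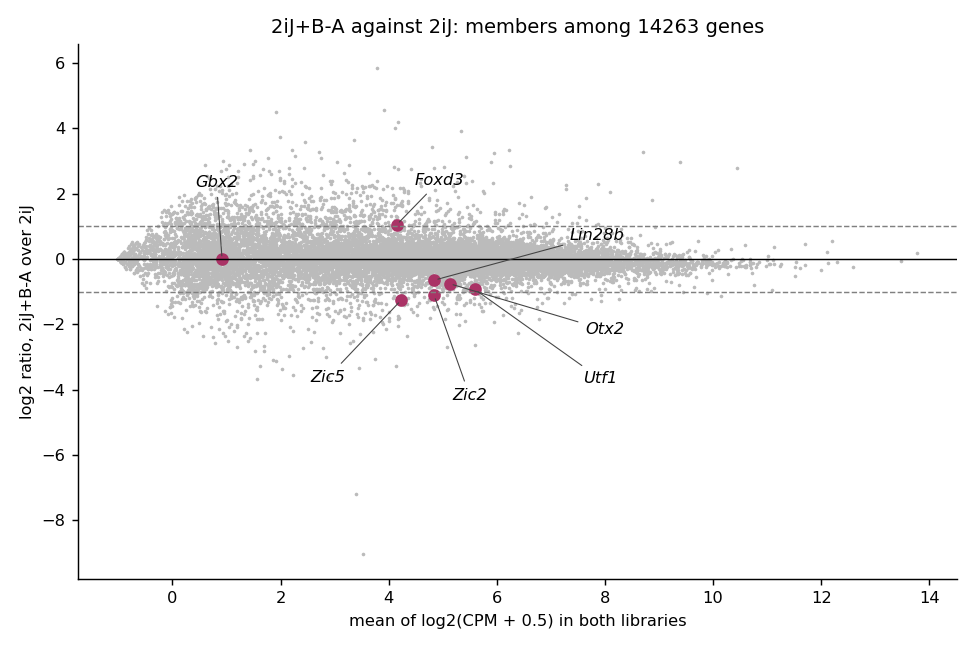
Log2 ratio of 2iJ+B-A over 2iJ against mean level for 14263 genes (grey), with the 7 members in color and dashed lines at 2-fold. Zic5 (-1.26) and Zic2 (-1.11) lie below the lower line and Foxd3 (1.05) just above the upper one.

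Otx2 (ENSMUSG00000021848, chr14:49277354-49287319 of NCBIM37, minus strand) had 982 counts in 2i-L, 1542 under 2iJ, 992 under 2iJ+B-A and 7 in TSCs. These are 29.5, 44.9, 26.4 and 0.199 CPM. The gene was highest in 2iJ, close to equal in 2i-L and 2iJ+B-A, and near the detection limit in TSCs. The log2 ratio was 0.60 in 2iJ against 2i-L (interval 0.48 to 0.71), the largest increase of the 7 compared members, with 94.8% of all genes below it. It was -0.75 in 2iJ+B-A against 2iJ (interval -0.87 to -0.64), with 5.72% of genes below it. Between 2iJ+B-A and 2i-L the difference was -0.16 (interval -0.28 to -0.03). Addition of BMP4 and the ALK5 inhibitor thus came with an Otx2 level slightly under that in 2i-L. In TSCs the log2 ratio to 2iJ was -6.02 (interval -6.29 to -5.63).

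Its paralogue Otx1, also a homeobox factor of the early nervous system, went the other way. Otx1 had 5 counts in 2i-L, 2 under 2iJ, 17 under 2iJ+B-A and 159 in TSCs. Per kilobase of exon, Otx2 was at 13.2 CPM and Otx1 at 0.0107 CPM in 2iJ, whereas in TSCs Otx2 was at 0.0587 and Otx1 at 0.835. Otx2 made up 99.9% of the counts of both genes in 2iJ (Clopper-Pearson interval from 99.5%) and 4.22% in TSCs (interval 1.71 to 8.50%). The OTX gene with most reads was therefore a different one in TSCs than in the mESC libraries.

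Zic2 (ENSMUSG00000061524, chr14:122874604-122879074, plus strand) and Zic5 (ENSMUSG00000041703, chr14:122856017-122864899, minus strand) are divergent neighbours with 9704 bases between them. Zic2 had 1011 counts in 2i-L, 1429 under 2iJ, 713 under 2iJ+B-A and 1086 in TSCs, or 30.4, 41.6, 19 and 30.9 CPM. Zic5 had 1094, 980, 436 and 1375 counts in the same order, or 32.9, 28.5, 11.6 and 39.2 CPM. Both were lowest in 2iJ+B-A, and both were expressed in TSCs at about their level in 2i-L. Zic2 in TSCs did not differ from 2i-L beyond counting error (log2 ratio 0.02, interval -0.10 to 0.15), and Zic5 was slightly higher there (0.25, interval 0.13 to 0.36).

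Relative to 2iJ, the log2 ratio in 2iJ+B-A was -1.11 for Zic2 (interval -1.24 to -0.98) and -1.26 for Zic5 (interval -1.42 to -1.10). Against 2i-L it was -0.67 for Zic2 (interval -0.80 to -0.53) and -1.46 for Zic5 (interval -1.62 to -1.31), so the size of the Zic2 difference depends on the library it is set against. The neighbours differed in direction with the JAK inhibitor. In 2iJ against 2i-L, Zic2 was higher (0.45, interval 0.33 to 0.56) and Zic5 lower (-0.20, interval -0.33 to -0.08). Zic2 made up 48.0% of the counts of the pair in 2i-L (interval 45.9 to 50.2%), 59.3% in 2iJ (57.3 to 61.3%), 62.1% in 2iJ+B-A (59.2 to 64.9%) and 44.1% in TSCs (42.2 to 46.1%). The shares in 2iJ and 2iJ+B-A lie above those in 2i-L and TSCs. Within each of these pairs the intervals overlap, only narrowly for 2i-L and TSCs, which does not show that the shares are equal.

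Counts of Zic5 are less certain than those of Zic2. Windows of 126 bases, the read length, were cut from its transcript, and 123 of 222 (55.4%) also matched chr11:56272839-56276001 at 95% identity or more. At 33 windows (14.9%) the copy matched at least as well as Zic5. Only read pairs with a single place in the genome were counted, so the level of Zic5 per length is a lower limit. An annotated pseudogene in that region, Gm12241, had 0 counts in all 4 libraries. No window of any other member matched elsewhere.

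Among other ZIC genes, Zic1, a neural and mesodermal ZIC factor, had at most 11 counts in any mESC library and 253 in TSCs. Its neighbour Zic4 had 0 counts in the mESC libraries and 25 in TSCs. Both were thus highest in TSCs, as was Zic5. Per kilobase of exon, Zic5 was at 8.01 CPM in TSCs, Zic2 at 7.39, Zic1 at 1.27 and Zic4 at 0.0689.

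**Figure D4:**
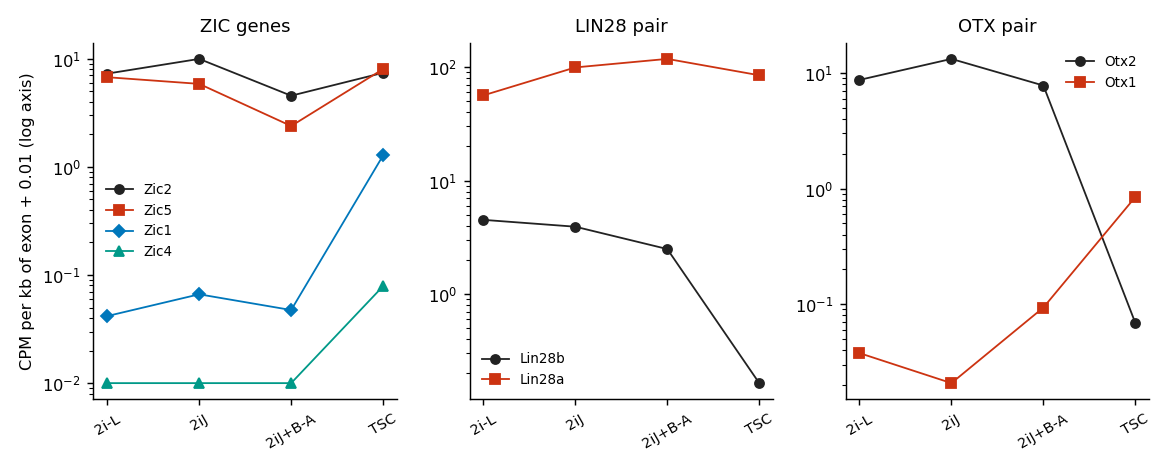
Level per kilobase of merged exons, with 0.01 CPM added and on a log axis, for Zic2, Zic5, Zic1 and Zic4, the LIN28 pair and the OTX pair in the 4 libraries. Lines join the points of 1 gene and have no meaning between libraries. Lin28a lies above Lin28b in all 4, at 12.5 times its level in 2i-L and 549.9 times in TSCs.

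Foxd3 (ENSMUSG00000067261, chr4:99322990-99325362, plus strand, a single exon) had 271 counts in 2i-L, 406 under 2iJ, 943 under 2iJ+B-A and 5 in TSCs. These are 8.15, 11.8, 25.1 and 0.142 CPM. It was the only member whose highest library was 2iJ+B-A. The log2 ratio was 0.51 in 2iJ against 2i-L (interval 0.30 to 0.73), 1.05 in 2iJ+B-A against 2iJ (interval 0.89 to 1.22) and 1.57 in 2iJ+B-A against 2i-L (interval 1.38 to 1.76). In TSCs it was -4.26 against 2iJ (interval -4.51 to -3.87). Foxd3 was thus above its 2iJ level in 2iJ+B-A and far below it in TSCs. The annotation sets a short microRNA entry with 0 counts inside the exon, over 89 bases of it. Foxd1, Foxd2 and Foxd4, its forkhead paralogues, were under 1 CPM in all 4 libraries.

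Utf1 (ENSMUSG00000047751, chr7:147129688-147131011, plus strand) had 1709 counts in 2i-L, 2271 under 2iJ, 1296 under 2iJ+B-A and 6107 in TSCs, or 51.4, 66.1, 34.5 and 174.0 CPM. The TSC library stood highest and 2iJ+B-A lowest. The log2 ratio was 0.36 in 2iJ against 2i-L (interval 0.27 to 0.45), -0.93 in 2iJ+B-A against 2iJ (interval -1.03 to -0.83) and 1.39 in TSCs against 2iJ (interval 1.32 to 1.46). Its short exons hold many reads, so that per kilobase it was the highest of the 8 with a readable level in every library, at 53.9 CPM under 2iJ and 141.8 CPM in TSCs. Its nearest coding gene, Kndc1, lies 2251 bases upstream on the chromosome and was ordered the same way, at 5.80, 9.90, 4.90 and 21.3 CPM.

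Lin28b (ENSMUSG00000063804, chr10:45096426-45206201, minus strand) had 1355 counts in 2i-L, 1217 under 2iJ, 845 under 2iJ+B-A and 49 in TSCs. These are 40.7, 35.4, 22.5 and 1.40 CPM, and no neighbours in that order had an interval that held 0. The log2 ratio was -0.20 in 2iJ against 2i-L (interval -0.31 to -0.09), -0.64 in 2iJ+B-A against 2iJ (interval -0.77 to -0.52) and -4.24 in TSCs against 2iJ (interval -4.56 to -3.93). It was the only member that was lower at each of these steps.

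Lin28a, its paralogue and the form usual in mESCs, was higher along the same mESC libraries, at 197.3 CPM in 2i-L, 348.0 under 2iJ, 413.7 under 2iJ+B-A and 296.8 in TSCs. Lin28b therefore made up 17.1% of the counts of both genes in 2i-L (interval 16.3 to 18.0%), 9.24% in 2iJ (8.75 to 9.75%), 5.16% in 2iJ+B-A (4.82 to 5.51%) and 0.468% in TSCs (0.346 to 0.618%). No pair of these intervals overlapped. Some 14.3% of the windows of the Lin28a transcript matched another place at 95% identity, so its level may be understated. Among 12 genes of the LIN28 and let-7 pathway, none passed 2-fold in 2iJ against 2i-L. In 2iJ+B-A against 2iJ, 2 were higher and 1 lower, against 5.81% and 3.17% of all genes. Hmga2, a chromatin protein and known let-7 target, stood at 70.0 CPM under 2iJ but 337.8 CPM under 2iJ+B-A (log2 ratio 2.26), its paralogue Hmga1 was at -1.08, and Arid3a was at 1.14. In TSCs 2 of the 12 were higher and 2 lower than in 2iJ. Over all genes 19.4% were higher and 17.6% lower, so the list lay near those shares. Arid3a was at 2.79, Zcchc6 at 1.27, Dis3l2, which degrades precursor let-7, at -1.27, and Igf2bp3 at -1.16.

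Gbx2 (ENSMUSG00000034486, chr1:91824537-91829865, minus strand) was low throughout, with 98 counts in 2i-L, 48 under 2iJ, 52 under 2iJ+B-A and 149 in TSCs, or 2.95, 1.40, 1.38 and 4.24 CPM. It had the largest decrease of the members in 2iJ against 2i-L, at -0.86 (interval -1.26 to -0.46), with 1.47% of all genes below it. With 0.1 CPM added in place of 0.5 CPM it passed 2-fold there. The 2iJ+B-A library did not differ from 2iJ beyond counting error (-0.01, interval -0.45 to 0.42). In TSCs the log2 ratio to 2iJ was 1.32 (interval 0.94 to 1.70), and to 2i-L it was 0.46 (interval 0.13 to 0.79). A gene on the opposite strand, D130058E05Rik, shares 1372 bases of the exons of Gbx2. It had 27, 11, 13 and 76 counts in the same order, so both strands were lower with the JAK inhibitor and highest in TSCs.

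Fgf5 (ENSMUSG00000029337, chr5:98683203-98706049, plus strand) stayed under 1 CPM in all libraries, with 3 counts in 2i-L, 19 under 2iJ, 2 under 2iJ+B-A and 0 in TSCs. Although few, its reads were most numerous in 2iJ. The CPM in 2iJ was 6.13 times that in 2i-L (counting interval 1.81 to 32.4) and 10.4 times that in 2iJ+B-A (interval 2.51 to 92.0). Both folds divide by counts at or below the 3 taken as detectable. With 0.5 CPM added, the log2 ratio was 0.84 in 2iJ against 2i-L and -0.93 in 2iJ+B-A against 2iJ, short of 2-fold. With 0 counts, TSCs lay at least 4.77-fold below 2iJ by the 95% counting interval. Like Otx2, Fgf5 was highest in 2iJ, while its 2i-L and 2iJ+B-A libraries did not differ beyond counting error. At 0.553 CPM in 2iJ, Fgf5 was far below Fgf4, the FGF ligand of naive cells, which was at 186.1 CPM in 2i-L, 134.0 under 2iJ, 91.5 under 2iJ+B-A and 0.0285 in TSCs.

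The level of Pou3f1 (ENSMUSG00000078236, chr4:124334896-124337899, plus strand) could not be read from these counts. The files list 0 counts for 2i-L and 2iJ, 1 for 2iJ+B-A and 2 for TSCs. A second entry of the same name on the same strand, a pseudogene (ENSMUSG00000090125), covers 3003 of its 3004 exon bases and also has 0 counts in all 4. Read pairs that fall on 2 genes of a strand are set aside as ambiguous. Of 113 protein-coding genes with at least 90% of their exon bases inside another gene on their strand, 110 (97.3%) had at most 3 counts in every library, against 26.9% of the 21139 with no such base. No level or direction is therefore given for Pou3f1. Of its POU3 paralogues, Pou3f2 had 1, 8, 49 and 0 counts in 2i-L, 2iJ, 2iJ+B-A and TSCs. Its log2 ratio was 1.30 in 2iJ+B-A against 2iJ, but it reached 1 CPM in 2iJ+B-A alone. Pou3f3 and Pou3f4 stayed under 1 CPM.

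A further list of 23 formative and primed epiblast genes was set beside the members, of which 21 could be compared. In 2iJ against 2i-L the median log2 ratio was 0.37, close to that of the members, but 1 gene passed 2-fold: Dnmt3l, a cofactor of de novo DNA methylation, at 37 CPM in 2i-L but 118.8 CPM under 2iJ (1.67). The next largest were Etv1 (0.94), Grhl2 (0.94) and Wnt8a (0.88). In 2iJ+B-A against 2iJ, 1 was higher and 2 were lower, with a median of 0.10. The methyltransferase gene Dnmt3a was at -1.21, the SOXB1 gene Sox3 at -1.10 and Sox11 at 1.03. In TSCs 4 were higher and 6 lower than in 2iJ. The ETS factor gene Etv4 was at 5.35 and the claudin gene Cldn6 at 2.88, while Lef1, a TCF-family factor, was at -3.81. These counts in TSCs stand beside 19.4% of all genes higher and 17.6% lower. In 2iJ+B-A against 2iJ the shares were 5.81% and 3.17%, and in 2iJ against 2i-L 1.23% and 0.918%.

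Genes of the neighbouring states were counted in the same way. Of 14 naive pluripotency genes, only Klf4 (-1.03) passed 2-fold in 2iJ against 2i-L, and the median was -0.38. In 2iJ+B-A against 2iJ their median was -0.46, with Klf4 (1.17) and Tbx3 (1.12) higher and Tcl1 (-1.45) lower. In TSCs 12 of 14 were lower, with a median of -3.73. Of 6 general pluripotency genes, none passed in 2iJ, 1 was lower in 2iJ+B-A (the Nodal co-receptor gene Tdgf1, -1.85), and 4 were lower in TSCs. Of 6 primitive streak genes that could be compared, none passed in 2iJ and 4 were lower in 2iJ+B-A, namely T (-2.35), Wnt3 (-1.86), Eomes (-1.78) and Nodal (-1.44). In TSCs 2 were higher and 2 lower. Of 7 neural ectoderm genes, 1 was higher in 2iJ, Pax6 (1.01), which was then lower in 2iJ+B-A (-1.86) while Lhx2 (1.04) was higher. In TSCs 2 of the 7 were higher and 2 lower. Both Pax6 and Lhx2 were low. Pax6 was at 1.41 CPM in 2i-L, 3.35 under 2iJ and 0.559 under 2iJ+B-A. Lhx2 was at 0.612 CPM under 2iJ and 1.78 under 2iJ+B-A.

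Of 11 ERK feedback and immediate target genes, which report on the MEK pathway that 2i blocks, none passed in 2iJ. In 2iJ+B-A 3 were higher (Spry2, Spry4 and Fos, with log2 ratios of 1.32, 1.26 and 1.22). None was 2-fold lower there, the median was 0.03 and the lowest was Dusp4 (-0.93). In TSCs 6 were higher, led by Egr1 (5.71), Fos (5.36) and Spry4 (4.84), and 1 was lower. Of 6 paralogues of the members that could be compared, none passed in 2iJ, 1 was higher and none lower in 2iJ+B-A, and 2 were higher and 2 lower in TSCs. Those higher were Pou3f2 in 2iJ+B-A and Otx1 and Zic1 in TSCs. Each reached 1 CPM only in that library, so the filter fixed its direction. The same holds in the lists here and above for Elf5, Egr1, Foxa2 and Lhx5, higher in TSCs, and for Sox17, higher in 2iJ+B-A. Trophoblast genes also differed between these libraries. Of 13, 2 were higher in 2iJ (Gata3, 1.32, and Cdx2, 1.21), 8 were higher and 1 lower in 2iJ+B-A, led by Hand1 (5.84) and Esx1 (4.58), and 12 were higher in TSCs. Of 7 primitive endoderm genes, 1 was higher in 2iJ, 4 were higher in 2iJ+B-A, with Gata6 at 2.57, and in TSCs 3 were higher and 1 lower. Fibroblast genes, which would mark feeder cells, summed to 51.4 CPM in 2i-L, 43.1 under 2iJ, 33 under 2iJ+B-A and 9.40 in TSCs. Of 7, 1 was lower at each of the first and second comparisons and 4 were lower in TSCs. The counts in these lists stand beside 1.23% of all genes higher and 0.918% lower in 2iJ against 2i-L. The shares were 5.81% and 3.17% in 2iJ+B-A against 2iJ, and 19.4% and 17.6% in TSCs against 2iJ. The part of the listed genes in the members' differences was not tested.

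**Figure D5:**
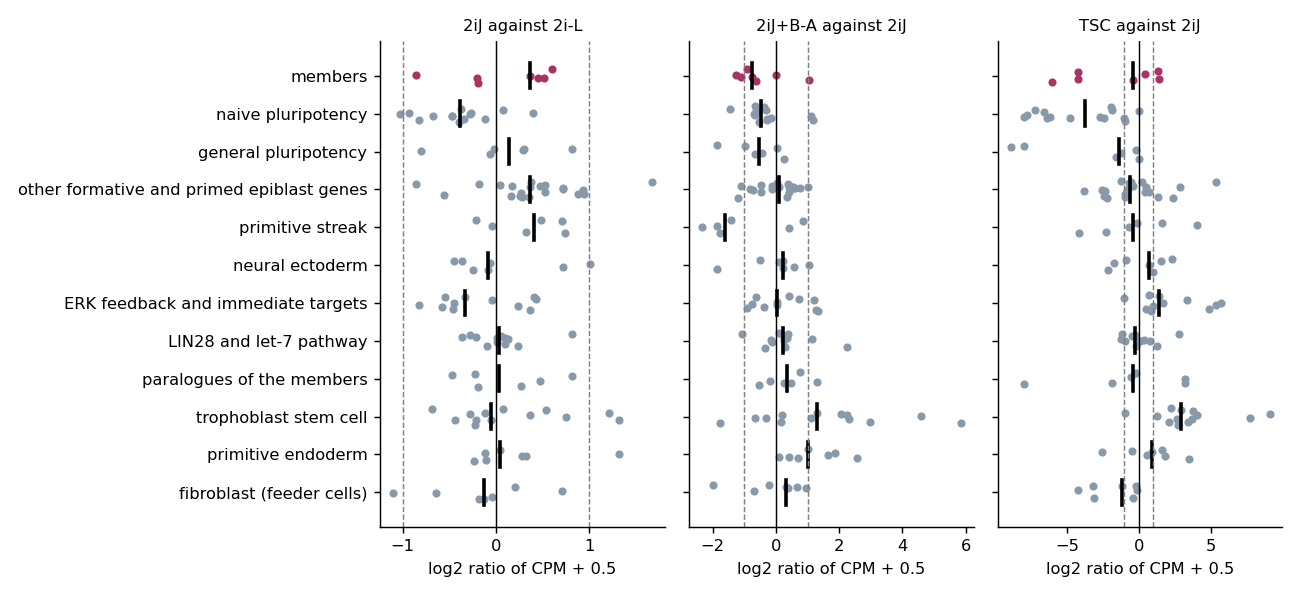
Log2 ratio of CPM + 0.5 of each compared gene (points, spread vertically for visibility) in the members and in the other gene lists, with a black bar at each list's median and dashed lines at 2-fold. Axes differ between panels. The members' median is 0.36 in 2iJ against 2i-L, -0.75 in 2iJ+B-A against 2iJ and -0.42 in TSCs against 2iJ, and in the last panel the members spread from -6.02 to 1.39.

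For each compared member, the 2 genes with the most similar profile over the 4 libraries were found among genes with at least 10 CPM in a library, by the distance between their log2(CPM + 0.5) values after centring. Over only 4 libraries, many genes come close. Within a distance of 1 lay 0.399% of genes for Foxd3, 0.886% for Otx2, 1.74% for Lin28b, 6.58% for Zic5 and 6.93% for Utf1. For Gbx2 it was 24.2% and for Zic2 48.6%, so that a near profile says little for Gbx2 and Zic2. Otx2 was nearest to Ttn, the gene of the muscle protein titin, at 31.5, 49.2, 28.7 and 0.228 CPM (distance 0.06), and then to Gm13051 (0.18). Foxd3 was nearest to Itm2a (0.16) and Prtg (0.36). Utf1 was nearest to Dusp4, a MAP kinase phosphatase of ERK feedback, at 4.12, 5.71, 2.77 and 15.6 CPM (0.06), and then to Steap1 (0.19). Lin28b was nearest to Fam81a (0.10) and to the cyclin-dependent kinase gene Cdk6 (0.15). Zic5 was nearest to Isyna1 (0.08) and Tmem63a (0.15), Zic2 to Il17rd (0.11) and Irak2 (0.14), and Gbx2 to Myh14 (0.17) and Kcnn1 (0.18). With a pseudocount of 1 CPM, 9 of these 14 pairs stayed the same, and those of Otx2, Zic2 and Zic5 were among them. Both genes nearest to Foxd3 changed, to Rragd and Wls. So did the nearest gene of Gbx2 and the next nearest of Utf1 and of Lin28b.

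The coding genes on either side of each member were read as well, to see whether a difference spread along the chromosome. Of 18 flanking places, 10 held a gene past 1 CPM. None of the 10 passed 2-fold in 2iJ against 2i-L, and in 2iJ+B-A against 2iJ only Zic2 and Zic5, each the neighbour of the other, did. In TSCs 3 did, all higher: Agap1 beside Gbx2 (1.12), Kndc1 beside Utf1 (1.07) and 6720456H20Rik beside Otx2 (1.48). Over all genes, 19.4% were higher and 17.6% lower in TSCs against 2iJ. In 2iJ+B-A against 2iJ, 5.81% were higher and 3.17% lower. Beside Otx2, Foxd3 and Lin28b, which were lowest in TSCs, no compared flanking gene was 2-fold lower there. These genes are too few to set against the share over all genes.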

How the data were processed

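RNA was poly-A selected and sequenced as stranded read pairs of 126 bases. Per the study's methods, the authors trimmed reads with cutadapt, mapped them with STAR 2.4.2a to NCBIM37 (CASAVA 1.8.2 is also named in the submitters' processing notes) and deposited raw counts per gene. Neither the release of the gene models nor the choice of count column is given in the sources used here. The reverse-strand count was used, 29.1 to 32.1 times the opposite-strand total. Symbols and exons came from an NCBIM37 annotation, which held 37205 of 37620 identifiers.

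Counts were scaled by TMM (edgeR 4.0.16, R 4.3.3, factors 0.969 to 1.04), and Python 3.11.15, numpy 2.4.6, pandas 2.3.3, scipy 1.17.1 and matplotlib 3.10.9 were used. A gene was compared if any library held 1 CPM or more of it. The 2-fold rule stands in place of a test. Transcript windows were aligned with minimap2 2.31. The steps were tested on simulated data. Alternatives were the unstranded count, DESeq2 1.42.0 size factors, library totals, pseudocounts, filters, cutoffs and the reference library. All 9 members are named, with at most 4 examples per list, those largest in size, or summed levels. Members and lists were chosen with earlier results of these data known. Sox1 and Otx2os1 were not analysed here, and another gene of these lists is not reported here. Tfcp2l1 and Tfap2c were matched through older symbols.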

Additional observations from a re-analysis of the deposited data

Results flagged for a closer look

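Read pairs on the strand opposite to Gbx2 came to 106 in TSCs, against 37 in 2i-L, 17 in 2iJ and 20 in 2iJ+B-A. They enter no reverse-strand ratio of a member above. The value stood out because the TSC library was 2.71 times the 2i-L library in CPM (95% counting interval 1.85 to 4.06), with 1 library each and no replicate check. Part of these pairs lie on D130058E05Rik, which had 76 counts in TSCs and was already set beside Gbx2 above, so this is not a separate observation. No opposite-strand count of another member was both 10 or more and 2-fold above 2i-L beyond counting error.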

How the results depend on the processing

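With 1 library per condition, no alternative can show variation between cultures, and a member near the 2-fold rule can cross it by scale alone. No paired analysis was possible because the conditions have 1 library each and the result comes from no test. Of 58 recomputed member counts, 49 stayed within 1.5 times their value, and none of the member ratios past 2-fold changed sign. The unstranded count, DESeq2 size factors, library totals and both filters left all member counts within that range. With a pseudocount of 0.1 CPM, 1 member (Gbx2) was lower in 2iJ against 2i-L. With a 1.5-fold rule, 1 was higher and 1 lower in 2iJ against 2i-L, and 5 were lower in 2iJ+B-A against 2iJ. With a 4-fold rule, 0 were higher and 0 lower in 2iJ+B-A against 2iJ, and 0 were higher in TSCs against 2iJ. With 2i-L as the reference, 1 was lower in 2iJ+B-A and 1 higher in TSCs. The genes called among all 14263 in 2iJ against 2i-L went from 175 higher and 131 lower to 422 and 230 at a pseudocount of 0.1 CPM and to 94 and 87 at 1 CPM. The sign of Gbx2 in 2iJ+B-A against 2iJ, near 0, was positive with the unstranded count (0.22) and with library totals (0.03).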
